A study of Homo sapiens with 10 samples.

Results

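RNA polymerase II (Pol II) makes the mRNAs of a human cell, and the genes named POLR2 encode its subunits. The POLR2 genes examined here were POLR2A, POLR2B, POLR2C, POLR2D, POLR2E, POLR2F, POLR2G, POLR2H, POLR2I and POLR2K, which are 10 of the 31015 genes with a measured 3′ end interval. They were chosen by name as subunits of 1 enzyme, not by their values, though earlier results of these data were known. POLR2A and POLR2B encode the largest subunits and together form the catalytic centre. POLR2C takes part in the scaffold on which the large subunits assemble, POLR2D and POLR2G form a stalk that can leave the core enzyme, and POLR2I sits at the edge of the cleft and takes part in transcript cleavage. POLR2E, POLR2F, POLR2H and POLR2K are shared with RNA polymerases I and III. CDK12 phosphorylates the long C-terminal tail of the POLR2A protein during elongation.

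The cells were 22RV1, a human prostate cancer line that grows without androgen. SLAM-seq was used: cells received 4-thiouridine for the last 10 min, and RNA made in that time carries T>C conversions in the sequencing reads. Every library here was from labelled cells, so T>C reads that arise without the label were not measured. Control cells received no compound. The other groups were exposed over 4 h to SRPIN340 (20 μM, blocking the splicing kinase SRPK1), to Endovion (50 μM, studied for the same target), to THZ531 (which blocks CDK12), or to THZ531 plus Endovion, here called the combination. Each group has 2 libraries, 10 in all, and THZ531 is given as 100 nM in the methods but as 150 nM in the description of the series. Nothing states that the 2 libraries of a group came from separate cultures, so p-values measure the spread between these libraries, which may be technical. The libraries hold 35517462 to 53592904 mapped reads and 1011598 to 1576121 T>C reads on genes. Luminal prostate markers were detected in every library, with 49 to 227 reads of KLK3, 2426 to 3829 of EPCAM and 7056 to 11906 of KRT18. Among markers of other cell types, CD3E and VWF had 0 reads in every library, PECAM1 up to 1, PTPRC up to 6, COL3A1 up to 8, COL1A1 40 to 83 and ALB 195 to 370. Levels are relative to each library's total, and a change in the number of cells cannot be told apart from one in RNA per cell.

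The libraries capture mRNA 3′ ends, but the reads of a subunit gene did not always lie at the last bases of its interval. In control replicate 1, 301 of 14213 POLR2E reads overlapped the last 410 bases. For POLR2F, 1796 of 2157 reads overlapped the first 86 of 1597 bases, and the other libraries were alike for both genes. The POLR2F interval also ends 72603 bp before the annotated end of the gene. Of the 10 genes, 7 had the poly(A) signal AATAAA within the last 50 bases of the interval with most reads. POLR2H had its last signal, ATTAAA, beginning 77 bases before the interval's end, and neither AATAAA nor ATTAAA was found in the intervals of POLR2A and POLR2G. Searched on the transcript's strand only, 75.8% of the 14568 tested genes with an interval of at least 50 bases had either motif in the last 50 bases. Most POLR2F reads thus lay far upstream of its signal. The windows of 30 bases below show the signal, in capitals, near the end of the interval for 3 subunit genes whose levels are described at length here. All are in build hg38, POLR2B on the plus strand at chr4:57031126-57031155, POLR2F on the plus strand at chr22:37969280-37969309 and POLR2D on the minus strand at chr2:127843556-127843585.
POLR2B: ctgtaaatatatAATAAAtttttgtagata
POLR2F: tgacttctcttgAATAAAatgtcccggtca
POLR2D: agtaatactgttAATAAAaagcactaaata

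POLR2A, the catalytic subunit, could not be tested. Its single listed interval (chr17:7499522-7499758) lies 14858 bp before the end of the gene. This interval had 37 reads in all 10 libraries together, from 0 to 16 a library. The main 3′ end of POLR2A was not analysed here, and the other 9 genes passed the filter on low counts in all measures. Their reads ranged from 266 to 3199 a library for POLR2B and from 8509 to 15744 for POLR2E, the highest of the set. T>C reads were far fewer, from 14 to 30 a library for POLR2I and from 246 to 486 for POLR2E.

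POLR2B was the only subunit gene called in nascent RNA by edgeR with all 10 libraries, and it was higher with all 4 treatments. Its T>C reads stood at 20.0 and 12.8 CPM (T>C reads scaled to the library's T>C reads with TMM factors) in the control libraries. They were at 39.9 and 75.1 CPM with SRPIN340, 85.9 and 99.1 with Endovion, 59.9 and 105 with THZ531, and 61.9 and 112 with the combination. Every treated library lay above both controls, a pattern of 6.75% of all genes. POLR2B nascent RNA rose by a log2 fold change of 1.79 (SE 0.36, adjusted p = 0.00218) with SRPIN340. It rose by 2.47 (SE 0.36, adjusted p = 5.79e-06) with Endovion, by 2.28 (SE 0.36, adjusted p = 1.37e-05) with THZ531 and by 2.37 (SE 0.36, adjusted p = 4.31e-06) with the combination. Total RNA moved by similar log2 values, from 1.89 to 2.55, and the labelled share was not called (both below). T>C reads that arise without the label were not measured, so how much of this rise was newly made RNA was not tested. Of all 9946 genes tested in nascent RNA, 0.845%, 2.04%, 3.86% and 4.61% rose in these comparisons, against 1 of 9 subunit genes in each. The study's methods set other limits, a log2 size of 1 or more with p below 0.05 before adjustment. By these POLR2B was again the only subunit gene past them, while 3.34%, 4.78%, 5.66% and 6.19% of all genes rose past those limits. The SRPIN340 call was lost without control replicate 2 and without SRPIN340 replicate 2, and the other calls held in all 10 fits that left out 1 library.

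**Figure D1:**
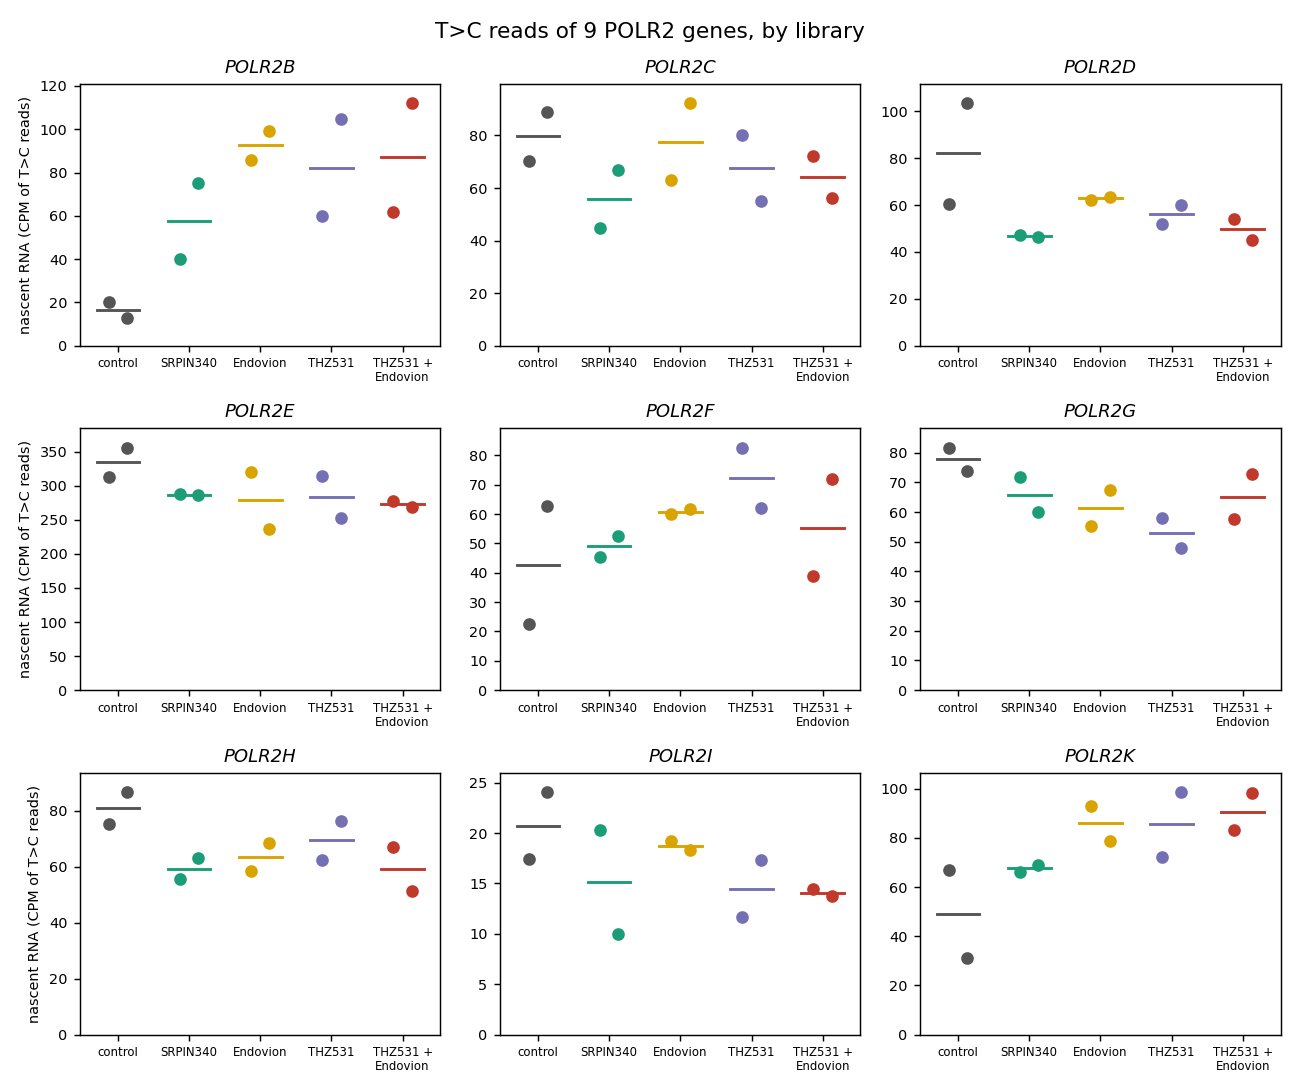
Nascent RNA of 9 POLR2 genes in CPM of T>C reads (y axis, from 0) in 5 groups. Points are libraries (2 a group) and horizontal lines are means. POLR2B lies at 12.8 and 20.0 CPM in the controls and at 39.9 CPM or more in all treated libraries, while treated libraries of the other genes overlap the controls except for POLR2G, where all lie below. Of all genes, 6.75% have both controls below all treated libraries and 5.55% have both above.

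The total RNA of POLR2B moved the same way with a wider spread. All reads, scaled in the same way to CPM, gave 25.6 and 11.2 in the control libraries. They gave 44.8 and 92.1 CPM with SRPIN340, 122 and 94.6 with Endovion, 57.5 and 147 with THZ531, and 91.4 and 120 with the combination. The 2 libraries of a group differed widely, most with THZ531, but none of the treated libraries reached down to the controls, as for 15.1% of all genes. The log2 fold changes were 2.47 (SE 0.68, adjusted p = 0.0462) with THZ531 and 2.52 (SE 0.68, adjusted p = 0.0456) with the combination. They were 1.89 (SE 0.67, adjusted p = 0.221) with SRPIN340 and 2.55 (SE 0.69, adjusted p = 0.077) with Endovion, which did not pass. Of the 10 fits that left out 1 library, POLR2B total RNA was called in 1 for THZ531, the fit without THZ531 replicate 1, and in 2 for the combination, those without either THZ531 replicate.

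The rise with Endovion was not seen on top of THZ531. POLR2B nascent RNA with the combination differed from THZ531 alone by a log2 value of 0.09 (SE 0.31) and from Endovion alone by -0.09 (SE 0.31). Neither edgeR nor DESeq2 called a subunit gene in nascent or total RNA in either comparison. At an unadjusted p under 0.05 edgeR gave 0 in nascent RNA and 1 in total RNA in each, and 0.322% and 0.511% of all genes (against THZ531) and 1.31% and 8.22% (against Endovion) were called by edgeR in nascent and total RNA. The Endovion effect on POLR2B with THZ531 minus that without it was -2.37 (SE 0.47, adjusted p = 0.0124) in nascent RNA and -2.51 (SE 0.93, adjusted p = 0.366) in total RNA. The nascent call held in 5 of the 10 fits that left out 1 library and was lost with a plain sum of all listed intervals (-2.44). The comparisons with control share the same 2 control libraries, in which POLR2B was lowest.

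Where the POLR2B reads fell also differed between libraries. The gene's interval (chr4:57030989-57031168, 180 bases of 3′ UTR, ending 10 bases past the gene's end in GENCODE v44) begins with a stretch of 19 bases that the files also list on its own, at chr4:57030989-57031007. It is shown with its 6 T positions in capitals, the bases at which the label can be read.
POLR2B, the first 19 bases: cTaTTTTacaggagTcaac
In the controls 2.65% (95% Wilson interval 1.70 to 4.10) and 4.89% (2.88 to 8.18) of POLR2B reads overlapped this stretch. The shares were 4.84% and 17.7% with SRPIN340, 27.9% and 12.9% with Endovion, 9.36% and 27.7% with THZ531, and 21.7% and 21.1% with the combination. The mean share over treated libraries was 4.75 times that over the controls. Among the 26 other genes with a short interval nested at the start of a longer one, this ratio had a median of 1.12 and ranged from 0.519 to 5.28, and 1 of them exceeded POLR2B. Its part in the result was not tested beyond leaving these reads out, a choice made after the values were seen. Without them, POLR2B nascent RNA still rose by log2 values of 1.57 (SRPIN340, adjusted p = 0.0138), 2.22 (Endovion, adjusted p = 3.4e-05), 2.10 (THZ531, adjusted p = 5.91e-05) and 2.07 (combination, adjusted p = 6.19e-05).

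The pattern of POLR2B over the 10 libraries was shared by genes outside Pol II. Because POLR2A was not tested, likeness was taken to POLR2B, after its values had been seen. Genes with the highest Pearson r in nascent log2 CPM, among those with a mean of at least 50 T>C reads a library, included TRIM59 (r = 0.969), CHRAC1, HNRNPF and KIF20A (r = 0.959). In total RNA, among genes with a mean of at least 200 reads, they included NSUN2 (r = 0.995), LLGL1, MFSD14A and MAD2L1BP (r = 0.994). NSUN2, an RNA methyltransferase, had 64.5 and 43.6 CPM in the controls, 108 and 204 with THZ531, 92.7 and 143 with SRPIN340, 157 and 144 with Endovion, and 137 and 158 with the combination. As with POLR2B, control replicate 2 was the lowest library and THZ531 replicate 2 the highest. The points of these correlations share the same libraries, and they are given as a description. Among the subunit genes, POLR2K (r = 0.849) ran most like POLR2B in total RNA and POLR2I (r = -0.925) most unlike it.

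Of the subunits shared with Pol I and Pol III, POLR2F and POLR2K rose in total RNA. POLR2F total RNA was at 83.1 and 73.1 CPM in the controls and at 101 and 102 with THZ531. It was at 91.5 and 91.8 CPM with the combination, 71.9 and 73.3 with SRPIN340 and 77.2 and 78.7 with Endovion. Both THZ531 libraries lay above every other library, and SRPIN340 and Endovion libraries lay within or just below the controls. With THZ531 it rose by a log2 value of 0.38 (SE 0.11, adjusted p = 0.018) against control, and it was also higher than with SRPIN340 (0.48, SE 0.11, adjusted p = 0.00631) and than with Endovion (0.38, SE 0.11, adjusted p = 0.0253). The call against control held in 7 of 10 fits without 1 library and was lost without control replicate 2 (0.25) or either THZ531 replicate. With the combination the difference from control was 0.23 (SE 0.11, adjusted p = 0.136). Its nascent RNA stood at 22.5 and 62.6 CPM in the controls, a wide gap, and at 82.7 and 62.0 with THZ531, where the log2 value of 0.80 (SE 0.34, adjusted p = 0.144) did not pass. It was 1.69 (adjusted p = 0.00871) without control replicate 2 and 0.23 without control replicate 1.

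POLR2K, a small zinc-binding subunit encoded on chromosome 8, had 84.1 and 50.9 CPM of total RNA in the controls. It had 95.05 and 119 with THZ531, 108 and 119 with the combination, 83.5 and 91.6 with SRPIN340, and 81.3 and 105 with Endovion. The libraries with THZ531, alone or with Endovion, all lay above both controls, and the others overlapped control replicate 1. It rose by 0.66 (SE 0.22, adjusted p = 0.0425) with THZ531 and by 0.75 (SE 0.22, adjusted p = 0.028) with the combination. Without control replicate 2, the lower of the pair, neither call held. Of the 10 fits without 1 library, the THZ531 call held in 4 and the combination call in 7, the latter being lost also without either replicate of the combination. Nascent RNA of POLR2K was 0.77 (SE 0.29, adjusted p = 0.0906) with THZ531 and 0.86 (SE 0.29, adjusted p = 0.0502) with the combination. Without control replicate 1 it was called with THZ531 (1.45, adjusted p = 0.00601), with the combination (1.54, adjusted p = 0.00314) and with Endovion (1.46, adjusted p = 0.00878). POLR2E, the most abundant member in reads, had control values of 507 and 603 CPM against 580 and 563 with THZ531, and its log2 fold changes in total RNA lay between -0.22 and 0.04 with none called.

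**Figure D2:**
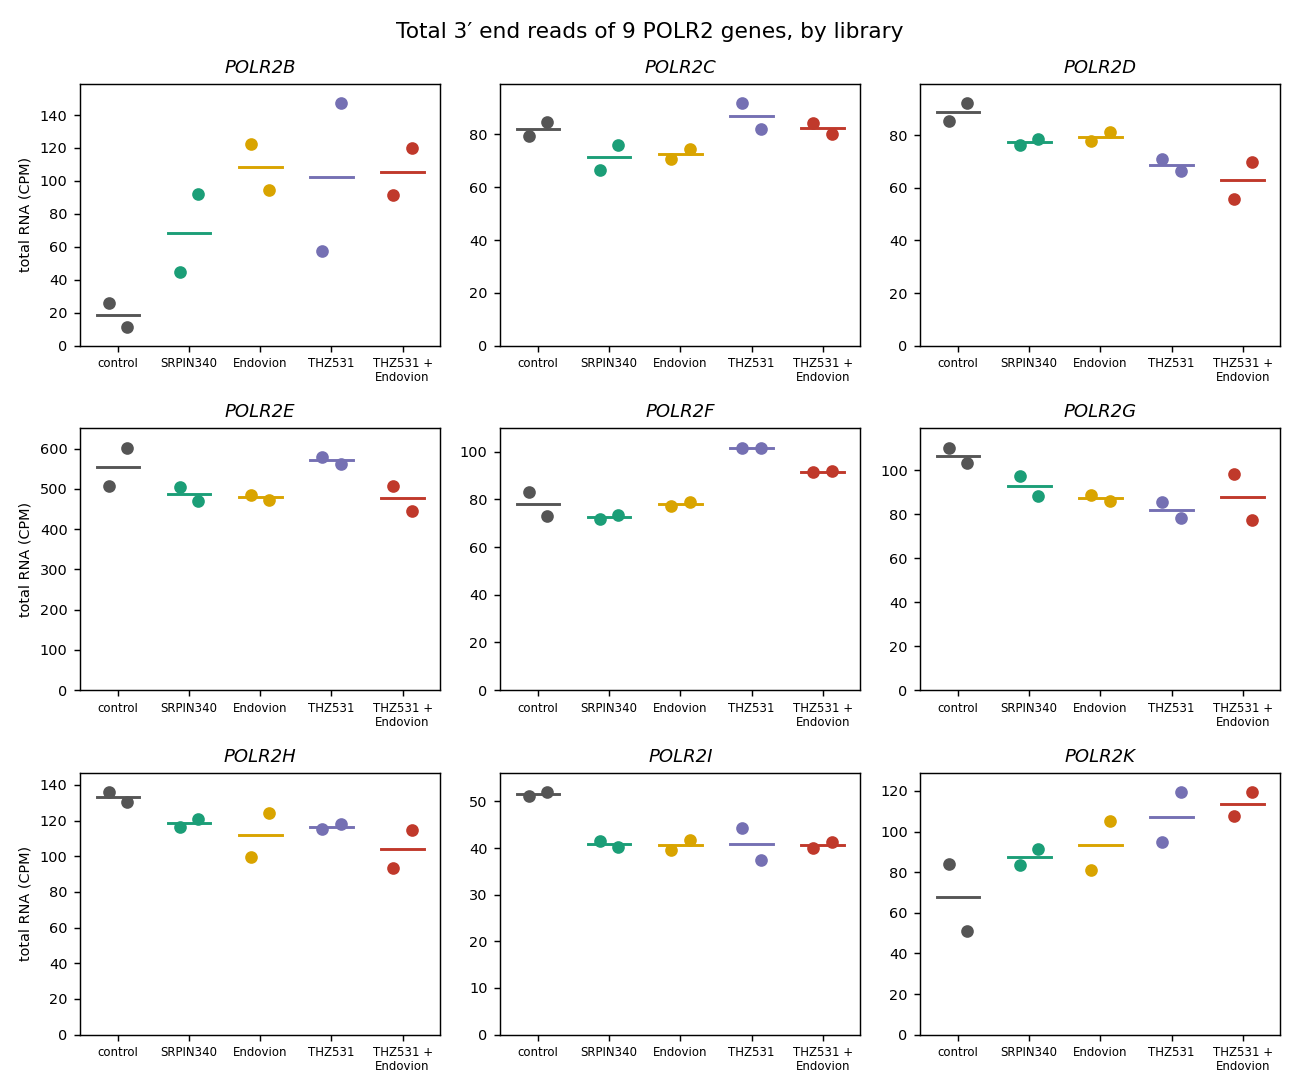
Total RNA of 9 POLR2 genes in CPM of all reads (y axis, from 0) in 5 groups. Points are libraries (2 a group) and horizontal lines are means. POLR2D, POLR2G, POLR2H and POLR2I have both controls above all 8 treated libraries (8.69% of all genes do), and POLR2B has both below (15.1% of all genes). POLR2F is highest with THZ531 at 101 and 102 CPM.

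Both stalk genes, POLR2D and POLR2G, fell in total RNA with THZ531, where 14.1% of all genes fell. POLR2D was at 85.6 and 92.2 CPM in the controls and at 70.8 and 66.3 with THZ531. It was at 55.9 and 69.8 with the combination, 76.3 and 78.4 with SRPIN340, and 77.6 and 81.2 with Endovion. All 8 treated libraries lay below both controls. POLR2D fell by 0.37 on the log2 scale (SE 0.13, adjusted p = 0.0342) with THZ531 and fell by 0.50 (SE 0.13, adjusted p = 0.00809) with the combination. POLR2G was at 110 and 103 CPM in the controls, 85.6 and 78.2 with THZ531, and 98.4 and 77.2 with the combination. With SRPIN340 it was at 97.4 and 88.2 and with Endovion at 88.5 and 85.9. For POLR2G too, all 8 treated libraries lay below both controls, a pattern of 8.69% of all genes. POLR2G fell by 0.38 (SE 0.13, adjusted p = 0.0342) with THZ531, and the log2 value with the combination was -0.28 (SE 0.13, adjusted p = 0.113). The THZ531 call held in 6 of 10 fits without 1 library for each gene. For both genes the THZ531 call was lost with a plain sum of all listed intervals and with a fit of only the groups compared. In nascent RNA neither gene was called, with log2 values of -0.55 (POLR2D, SE 0.29) and -0.55 (POLR2G, SE 0.28) with THZ531.

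The reads of POLR2D were also spread differently along its 3′ UTR. Among the subunit genes such shares were compared between groups only for POLR2B and POLR2D. The shift in POLR2D was not set beside that of other genes, so how common it is was not tested. The gene's interval spans 4556 bases (chr2:127843551-127848106, minus strand), and the files list its first 1408 bases in the direction of transcription (chr2:127846699-127848106) as a separate interval of a shorter transcript. In the controls 6.54% (95% Wilson interval 5.62 to 7.60) and 5.11% (4.26 to 6.11) of the reads lay there. The shares were 10.2% and 9.30% with THZ531, 9.25% and 10.7% with the combination, 7.002% and 7.56% with Endovion, and 5.25% and 3.57% with SRPIN340. Both groups with THZ531 lay above all other libraries, SRPIN340 overlapped the controls, and with 2 libraries against 2 an exact permutation test cannot reach 0.05, so none is given. Reads in this first part had T>C conversions more often than the rest: 24.8% and 30.4% of them in the controls against 2.45% and 4.57% of the reads outside it. The shares in the first part were 5.61% and 21.6% with SRPIN340, 14.8% and 16.1% with Endovion, 14.3% and 13.9% with THZ531, and 24.6% and 18.9% with the combination, against 1.59% to 3.83% outside it in these libraries. These rest on 6 to 39 T>C reads a library in the first part, and whether their conversions came from the label was not tested.

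**Figure D3:**
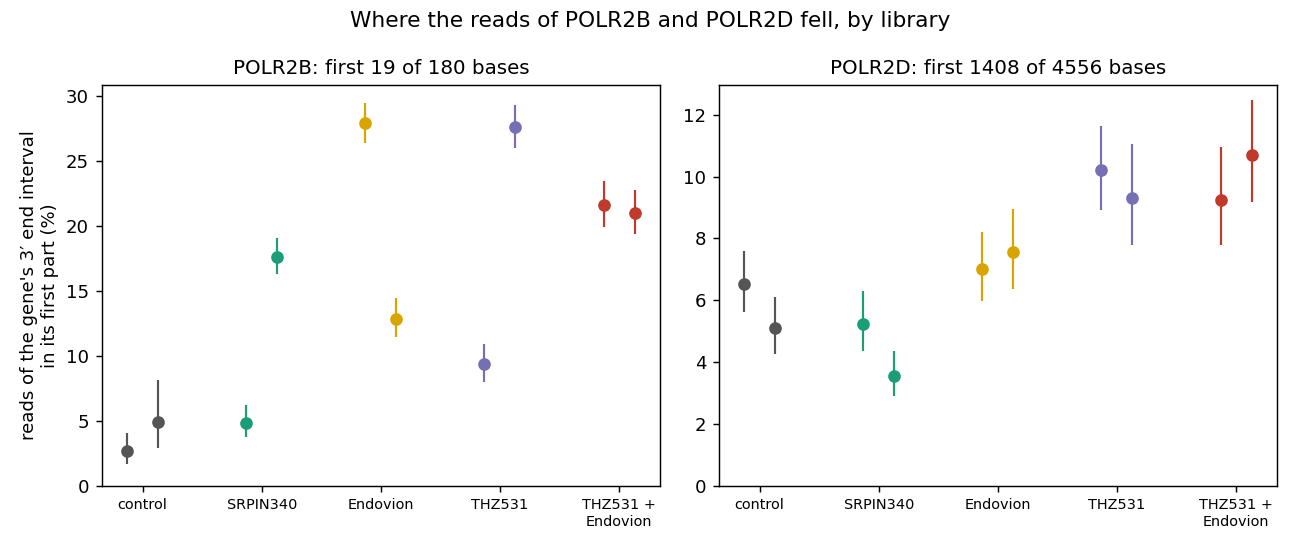
Share of reads (y axis, percent, from 0) in the first 19 bases of the POLR2B interval (left) and the first 1408 bases of the POLR2D interval (right), by group. Points are libraries and bars are 95% Wilson intervals, which cover counting error only. POLR2D shares with THZ531 lie between 9.25% and 10.7%, above the 5.11% and 6.54% of the controls.

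Among the other subunits, POLR2H, shared by all RNA polymerases, fell in total RNA with the combination. It had 136 and 130 CPM in the controls, 93.4 and 115 with the combination, and 115 and 118 with THZ531. With SRPIN340 it had 117 and 121 and with Endovion 99.4 and 124, so all 8 treated libraries lay below both controls. The log2 value fell by 0.36 (SE 0.13, adjusted p = 0.0462) with the combination and was -0.19 (SE 0.13, adjusted p = 0.273) with THZ531. The combination call held in 5 of 10 fits without 1 library and was lost without either control replicate, either SRPIN340 replicate or replicate 1 of the combination. POLR2I had 51.2 and 52.0 CPM in the controls against 37.5 to 44.3 in the treated libraries. Its log2 values in total RNA lay between -0.33 and -0.34 in all treatments. The smallest adjusted p was 0.0564 for the combination, so none passed in edgeR with all 10 libraries. Some edgeR fits without 1 library did call POLR2I lower. Without THZ531 replicate 1, its log2 values were -0.40 with Endovion, -0.51 with THZ531 and -0.40 with the combination. DESeq2 called it lower with the combination (-0.36, adjusted p = 0.0431) and with Endovion (-0.38, adjusted p = 0.0485), as did edgeR with RLE factors with the combination (adjusted p = 0.0444). POLR2C, the scaffold subunit, had 79.3 and 84.7 CPM in the controls, 91.9 and 82.1 with THZ531 and 66.7 and 76.1 with SRPIN340, and was not called anywhere.

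Over the set, total RNA of 3 subunit genes rose and of 2 fell with THZ531, and 2 rose and 2 fell with the combination, out of 9. Of all 14690 genes tested in total RNA, 16.6% rose and 14.1% fell with THZ531, and 16.6% rose and 12.4% fell with the combination. With SRPIN340 and Endovion no subunit gene was called in total RNA by edgeR, where 1.96% and 11.4% of all genes were called in either direction. At an unadjusted p under 0.05 there were 2 of them with SRPIN340 (POLR2B and POLR2I) and 3 with Endovion (POLR2B, POLR2G and POLR2I). DESeq2 called 1 (POLR2B) and 2 (POLR2B and POLR2I). The median log2 fold change of the subunit genes in total RNA was -0.18 with SRPIN340, -0.18 with Endovion, 0.04 with THZ531 and -0.22 with the combination, against 0.03, 0.02, -0.0059 and -0.0019 over all genes. Both controls lay above all 8 treated libraries for POLR2D, POLR2G, POLR2H and POLR2I, a pattern of 8.69% of all genes, and below them for POLR2B, a pattern of 15.1%. In nascent RNA both controls lay above for POLR2G (5.55% of all genes) and below for POLR2B (6.75%). The 5 members called with THZ531 were fewer in most fits without 1 library: none remained without THZ531 replicate 2, 1 without control replicate 2, 1 without either SRPIN340 replicate, and 3 without control replicate 1 or without replicate 2 of the combination. With the combination 4 were called in all libraries, 1 without control replicate 2 (POLR2D), 1 without replicate 1 of the combination (POLR2G, not among the 4), and 2 without its replicate 2 or without either SRPIN340 replicate. A fit of only the control and THZ531 libraries called 0 members with THZ531.

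**Figure D4:**
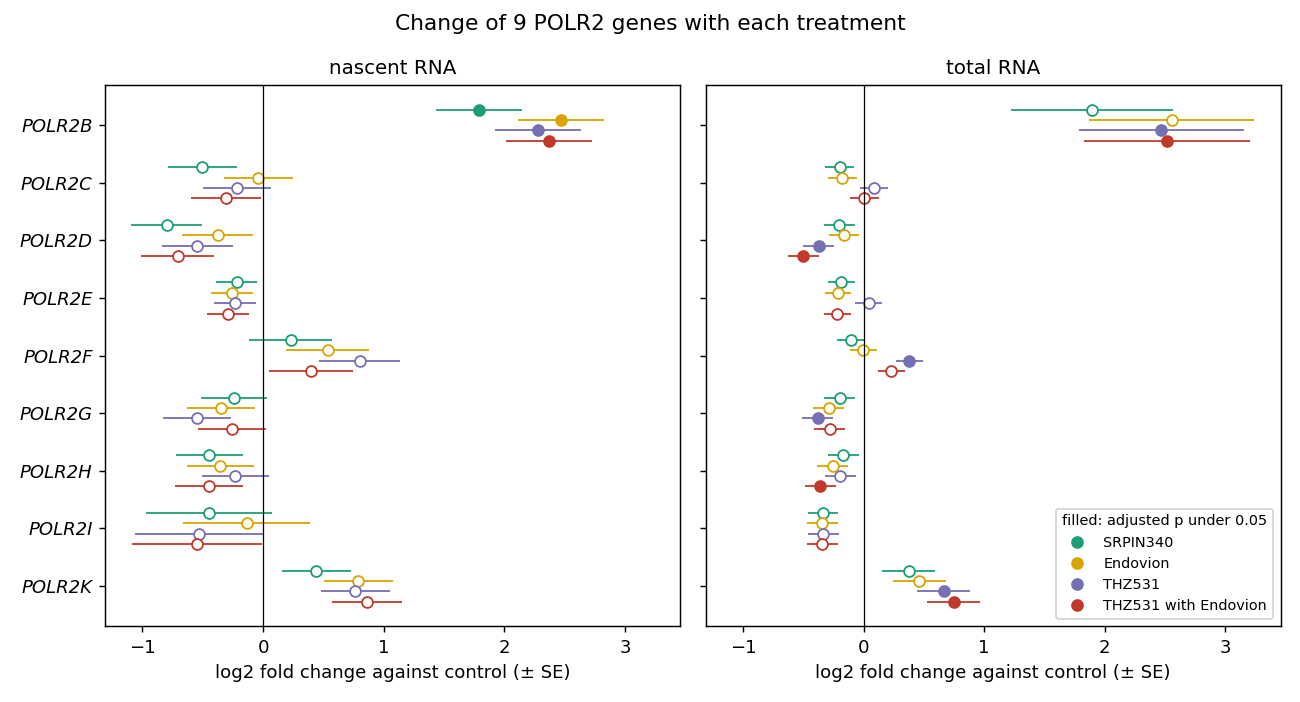
Log2 fold change against control (x axis, ± SE) of 9 POLR2 genes in nascent RNA (left) and total RNA (right) for the 4 treatments. Filled points have an adjusted p under 0.05. POLR2B lies between 1.79 and 2.55 in all comparisons, and the other genes lie between -0.80 and 0.86.

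The labelled share, the percent of a gene's reads with a T>C conversion, was not called for any subunit gene in any comparison. In the 4 comparisons with control, 0.181%, 0.292%, 0.312% and 1.05% of all genes were called (SRPIN340, Endovion, THZ531 and the combination). At an unadjusted p under 0.05 only POLR2F and POLR2K passed, both with Endovion. POLR2B had shares of 4.32% (95% Wilson interval 3.06 to 6.06) and 6.02% (3.74 to 9.54) in the controls and 3.50% to 5.90% in treated libraries. Its share relative to the typical gene differed from control by log2 values of 0.04 (SE 0.34) with SRPIN340, 0.06 (SE 0.33) with Endovion, 0.04 (SE 0.34) with THZ531 and -0.03 (SE 0.34) with the combination. With SEs of this size, shifts well above 1 SE can also go uncalled after adjustment over all genes. The POLR2F share was higher by 0.77 (SE 0.35) with Endovion and did not pass. Shifts of the POLR2B share of such a size could thus have been missed at this depth.

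The subunit genes differed in the labelled share itself. Medians over the 10 libraries ran from 2.07% for POLR2I and 2.997% for POLR2H to 4.46% for POLR2C and 4.62% for POLR2B. Reads of POLR2I covered a median of 8.42 T positions each, against 36.8 for POLR2B, and a read with fewer T positions has fewer chances to show a conversion. Counted as conversions per covered T, the order changed: the medians were 0.102% for POLR2H, 0.130% for POLR2B, 0.135% for POLR2K, 0.164% for POLR2I, 0.199% for POLR2C and 0.222% for POLR2D. POLR2F showed the widest gap between replicates, with 1.501% (95% Wilson interval 1.081 to 2.08) and 4.49% (3.61 to 5.57) of reads labelled in the controls and 4.62% and 3.21% with THZ531. Control replicate 1 therefore decided the direction of the POLR2F share, as the log2 value with THZ531 was 0.62 (SE 0.34) with it and -0.20 without it. Without control replicate 2 the POLR2F share was called with Endovion, at 1.69 (adjusted p = 0.0471).

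**Figure D5:**
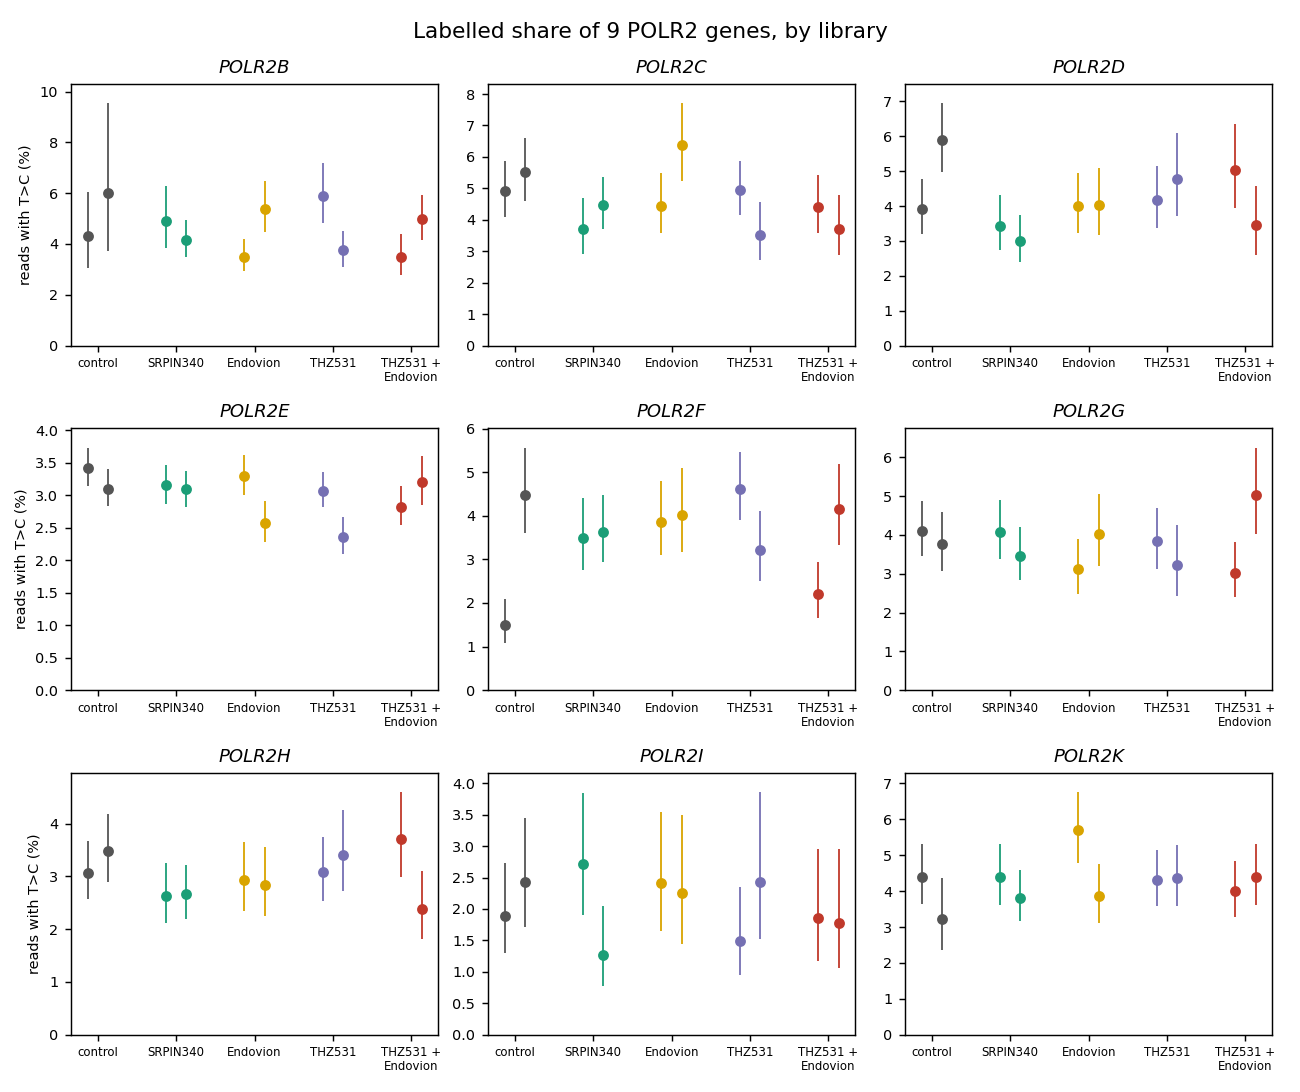
Reads with a T>C conversion (y axis, percent of the gene's reads, from 0) for 9 POLR2 genes by group. Points are libraries and bars are 95% Wilson intervals for counting error. Most intervals overlap between groups, and POLR2F spans 1.501% to 4.49% within the controls alone.

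Genes that work with the enzyme were read from lists, each counted over its tested members. Pol II is assembled in the cytoplasm with chaperones and imported by factors such as RPAP2 and GPN1, meets general transcription factors at promoters, and is then accompanied by elongation factors and by proteins that read its C-terminal tail. Of all listed genes other than the 10 subunits, 103 were tested in total RNA, of which 26 rose and 12 fell with THZ531, where 16.6% of all genes rose and 14.1% fell. With the combination 27 rose and 15 fell, against 16.6% and 12.4% of all genes, and with Endovion 12 rose and 4 fell, against 8.9% and 2.53%. With SRPIN340 2 rose, where 1.96% of all genes were called in either direction. In nascent RNA, 8 of 96 rose and 4 fell with THZ531, against 3.86% and 3.6% of all genes.

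Of 15 tested readers and phosphatases of the C-terminal tail, 5 rose and 4 fell in total RNA with THZ531, with a median log2 fold change of 0.19, against 16.6% up and 14.1% down over all genes. PCF11, a cleavage and termination factor that binds the tail, had 17.8 and 20.7 CPM in the controls and 1.70 and 1.34 with THZ531. It had 5.39 and 3.14 CPM with the combination, 24.7 and 25.7 with SRPIN340, and 27.9 and 27.4 with Endovion. All libraries with THZ531 lay far below the rest. PCF11 fell by 3.64 (SE 0.25, adjusted p = 8.2e-07) with THZ531 and was higher with the combination than with THZ531 alone by 1.48 (SE 0.26, adjusted p = 0.0202), on 46 and 25 reads with THZ531 and 123 and 60 with the combination. RPAP2, a tail phosphatase that also serves import of Pol II, went from 82.3 and 90.8 CPM in the controls to 24.4 and 22.6 with THZ531, and fell by 1.88 (SE 0.16, adjusted p = 2e-06). CTDSP1, another tail phosphatase, fell by 0.73 (SE 0.14, adjusted p = 0.0012), whereas SCAF8, a tail reader that acts against early termination, rose by 1.39 (SE 0.17, adjusted p = 3.6e-05). SETD2, the histone methyltransferase that travels with the enzyme, was called higher with Endovion, THZ531 and the combination, but it had 0 reads in both controls and 5 to 37 in the treated libraries, so no fold is given.

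Elongation factors called with THZ531, alone or in the combination, were all higher. Of 18 tested, 7 rose and 0 fell in total RNA with THZ531 and 6 rose and 0 fell with the combination, and the median with THZ531 was 0.31. Of all genes, 16.6% rose and 14.1% fell with THZ531 and 16.6% rose and 12.4% fell with the combination. RTF1 and LEO1 belong to the PAF1 complex, which binds elongating Pol II. RTF1 went from 102 and 96.5 CPM in the controls to 188 and 196 with THZ531, a rise of 0.95 (SE 0.11, adjusted p = 2e-05), and its nascent RNA rose by 1.05 (SE 0.24, adjusted p = 0.0021). LEO1 rose by 0.90 (SE 0.19, adjusted p = 0.0024) in total RNA.

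Of 14 general transcription factors tested, 4 rose and 2 fell in total RNA with THZ531 (median 0.26), against 16.6% and 14.1% of all genes, and 5 rose and 3 fell with the combination, against 16.6% and 12.4%. GTF2B, which bridges promoter DNA and Pol II, rose by 1.15 (SE 0.20, adjusted p = 0.00084) with THZ531, and GTF2F2, a subunit of TFIIF, by 0.87 (SE 0.17, adjusted p = 0.0013). GTF2E1, the large subunit of TFIIE, fell by 1.76 (SE 0.19, adjusted p = 1.7e-05), from 28.7 and 31.3 CPM to 10.7 and 6.81. GTF2A1, a subunit of TFIIA, was the only listed gene called in nascent RNA with SRPIN340 (1.15, SE 0.28, adjusted p = 0.023) and with Endovion (1.30, SE 0.29, adjusted p = 0.003).

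For assembly and import, 3 of 19 tested genes rose and 3 fell in total RNA with THZ531 (median 0.06), close to the 16.6% up and 14.1% down of all genes, the shares to set beside the other counts of this paragraph too. RPAP2 is on this list and on that of tail readers and phosphatases, so its fall is counted in both. The chaperone subunit PFDN2 rose by 0.96 (SE 0.15, adjusted p = 0.00037) and the chaperone cofactor TTI1 fell by 0.91 (SE 0.17, adjusted p = 0.0012). Of 15 genes of Pol II ubiquitylation and turnover, 5 rose and 1 fell (median 0.14). ELOA, which serves a ubiquitin ligase of stalled Pol II, rose by 1.35 (SE 0.15, adjusted p = 1.7e-05), and UVSSA, a partner of stalled Pol II in DNA repair, fell by 0.98 (SE 0.17, adjusted p = 0.00052). Of 18 specific subunits of Pol I and Pol III, 1 rose and 3 fell (median -0.15). POLR1A, the largest Pol I subunit, fell by 0.99 (SE 0.15, adjusted p = 0.00021), from 39.4 and 50.1 CPM to 20.8 and 24.2, and POLR1F rose by 0.96 (SE 0.14, adjusted p = 0.00014). Of the remaining Pol II genes, 1 of 5 rose, POLR2M, by 0.87 (SE 0.17, adjusted p = 0.0017).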

How the data were processed

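The authors made 3′ end libraries from alkylated RNA, mapped single-end reads and counted conversions with SLAM-DUNK. The submitters' processing notes also name Bowtie2 2.3.4.1, SAMtools 1.6 and DESeq2 1.38.2. The authors deposited, for each library and 3′ UTR interval, unnormalized counts of covered T positions, conversions, T>C reads and reads. The deposited T content, conversion rate (a fraction) and read CPM (treated as a score) entered no test; T content equalled hg38 in 5000 of 5000 intervals checked. The kit adds molecular identifiers, but whether reads were collapsed by them and the SLAM-DUNK settings are not given in the sources used here, so Wilson intervals (95%) cover counting error only.

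Of 104653 intervals, 92910 matched GENCODE v44. Where intervals of 1 gene overlapped, that with the highest read count stayed (57437 in all), and these were summed to 31015 genes. Counting strand is not given in the sources used here; no same-strand interval of another gene overlapped those of the subunit genes. edgeR 4.0.16 (R 4.3.3) compared T>C reads, called nascent RNA, and all reads, called total RNA (robust quasi-likelihood test, filterByExpr, TMM, 5 group means over 10 libraries, 5 residual degrees of freedom), with Benjamini-Hochberg adjustment over all genes and a call at an adjusted p under 0.05. CPM are TMM-scaled. The labelled share was tested as treatment by read class and each library as a block. Alternatives included DESeq2 1.42.0. Procedures were tested on simulated data. Replicate numbers did not pair the libraries (correlation of deviations between -0.07 and 0.06).

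The members and lists were chosen with earlier results of these data known. All members are named, and list genes come from the at most 3 called with the smallest p per list, measure and direction; PCF11 in the combination against THZ531, SETD2 and the genes most like POLR2B were singled out after their values were seen. The shares of reads in parts of the POLR2B and POLR2D intervals lie outside the comparisons of levels and were compared between groups for no other subunit gene. Cells given both THZ531 and SRPIN340 were not analysed here. Some marker genes and genes similar to POLR2B are not reported here.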

Additional observations from a re-analysis of the deposited data

Results flagged for a closer look

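The Endovion effect on POLR2B nascent RNA differed with and without THZ531, by -2.37 on the log2 scale (SE 0.47, edgeR adjusted p = 0.0124). The difference was also past the threshold in 5 of 10 fits without 1 library, over which it ranged from -2.86 to -1.94. It was lost without control replicate 2, THZ531 replicate 2, either Endovion replicate or replicate 1 of the combination.

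The share of POLR2B reads in the first 19 bases of its interval, a measure outside the comparisons of levels, was above the control mean of 3.77% ± 1.58 (SD, n = 2) in every treated group. The mean was highest with THZ531 and Endovion together, at 21.4% ± 0.42 (SD, n = 2). The highest single libraries were Endovion replicate 1 (27.9%) and THZ531 replicate 2 (27.7%), above both libraries of the combination. The other means were 11.2% ± 9.06 with SRPIN340, 20.4% ± 10.6 with Endovion and 18.5% ± 12.9 with THZ531 (SD, n = 2 each). SRPIN340 replicate 1, at 4.84%, lay between the controls, and all other treated libraries lay above both.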

How the results depend on the processing

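The number of subunit genes called was computed under each alternative. In nascent RNA the call of POLR2B with SRPIN340 was lost, giving 0 genes, with a plain sum of intervals and with a fit of only the groups compared. With the combination 2 genes (POLR2B and POLR2K) were called with only the interval with most reads, with no low-count filter and with the replicate block. In total RNA DESeq2 called 1 gene with SRPIN340 and 2 with Endovion, and no low-count filter gave 1 with Endovion. With THZ531, 3 genes were called with a plain sum, 0 with only the groups compared and 3 with the replicate block. With no low-count filter 4 were called with THZ531 and 3 with the combination, both times losing POLR2B, and DESeq2 and RLE factors gave 5 with the combination, adding POLR2I. With the combination 2 were called with the replicate block. In total RNA, the calls lost to the block were those of POLR2B and POLR2K with THZ531 and with the combination, and it changed no other count there. POLR2H with the combination was lost with only the interval with most reads and with only the groups compared. Since replicate numbers did not pair the libraries, the block is given only here. In the 10 fits without 1 library, counts ranged in nascent RNA from 0 to 2 (SRPIN340), 1 to 2 (Endovion and THZ531) and 1 to 3 (combination). In total RNA they ranged from 0 to 1 (SRPIN340 and Endovion), 0 to 5 (THZ531) and 1 to 5 (combination), and in the labelled share from 0 to 1 with Endovion. Where a fit had 1 library in a group, that library was assumed to vary like the others. Signs changed in uncalled values only. Over the fits without 1 library, POLR2F nascent RNA ranged from -0.0419 to 1.43 with Endovion and from -0.18 to 1.28 with the combination, with the negative values coming without control replicate 1 and, for the combination, also without its replicate 2 (-0.10). POLR2D nascent RNA with Endovion ranged from -0.72 to 0.0544, the latter without control replicate 2. The POLR2F share ranged from -0.35 to 1.46 (SRPIN340), -0.13 to 1.69 (Endovion) and -0.20 to 1.52 (THZ531), each negative only without control replicate 1, and from -0.86 to 0.0076 for the combination against Endovion, positive only without replicate 1 of the combination. The cause was not tested. Conversions per covered T moved 16 share values by more than the SE of the main value. T>C reads limit precision: with 14 to 30 a library for POLR2I, the SE of its nascent log2 value with THZ531 was 0.54.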
